A study of Mus musculus with 16 samples.

Results

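Chaperone and protein folding genes were examined in kidneys of mice lacking Slc15a2, the gene of the peptide transporter PEPT2. They were taken by symbol from the array's annotation: the heat shock protein families (symbols that begin with Hspa, Hspb, Hspd, Hspe, Hsph or Hsp9), the J proteins (Dnaja, Dnajb, Dnajc), the subunits of the chaperonin CCT, the Pdia protein disulfide isomerases, the FKBP and cyclophilin prolyl isomerases, the BAG cochaperones, and the lectin chaperones Calr and Canx. The CCT subunits were those with symbols that begin with Cct, so the subunit Tcp1 was not among them. The heat-inducible genes Hspa1a, Hspa8, Dnajb1 and Hsph1 were left out by the rule and are given only for comparison. Of 88 genes matched by a probe that names 1 gene, 67 had a value in both dye orientations for every mouse and could be tested, among 6191 genes tested in all. They were measured by 85 probes, with 51 genes read by a single probe and 43 genes present on all 16 arrays.

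Chaperones bind unfolded or partly folded proteins and keep them from aggregating while they fold. HSP70 proteins do so in cycles of ATP hydrolysis that J proteins start, HSP90 proteins act on clients near the end of folding, and the CCT ring encloses actin, tubulin and other substrates in the cytosol. In the endoplasmic reticulum (ER), where secreted and membrane proteins such as the many transporters of the renal tubule are made, BiP, GRP94, calnexin, calreticulin and the disulfide isomerases share this work, and their genes are raised together by the unfolded protein response.

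The material was total RNA of the right kidney of 4 male Pept2 KO mice, each hybridised on its own, and of 1 pool from 5 wild-type right kidneys. The mice were 88 ± 2 days old, of mixed C57BL/6 and 129Sv background, and were offspring of matings within 1 heterozygous line. Knockout and wild-type animals thus shared age, side and the mixed background. Strain sequence linked to the deleted gene may still differ between genotypes, which was not tested. Each knockout mouse was set against the pool on 4 two-colour cDNA arrays, 2 with the knockout RNA in channel 1 and 2 with it in channel 2. The deletion is in every cell of the animal as far as the labels tell, and whole kidney was used, so that fewer cells of a type and less RNA per cell cannot be told apart.

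A gene's value is the log2 ratio of knockout kidney over the wild-type pool, first averaged within each mouse and then over 4 mice, so 0 means the level of the pool. The deposited ratios were taken as channel 1 divided by channel 2, which is likely but not stated, because Slc15a2 then stood at -2.51 (SE 0.10, n = 4 mice) and its mouse values at -2.17, -2.74, -2.81 and -2.33. That gene is therefore no independent evidence for the direction, and under the opposite reading every sign given here is exchanged. Arrays carried values for 50.2% to 91.1% of the probes and for 58 to 66 of the 67 folding genes. No wild-type kidney was measured alone, so each test against the pool leaves out the spread between wild-type animals, and an error of the pool is shared by all 4 mice. Precision is limited by having 4 mice and 16 arrays, and array ratios give no level of one gene relative to another.

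Arrays grouped by dye orientation as well as by mouse. Within a mouse the median correlation across probes was 0.30 in the same orientation and 0.17 in opposite orientations, where the lowest was -0.006. Between mice these medians were 0.19 and 0.051. Some arrays also stood apart from their labels' grouping. Across probes, the third array of mouse 3 and the first of mouse 4 were the most correlated of all pairs (r = 0.64), both with knockout RNA in channel 2, while no pair within a mouse exceeded 0.57. Array 2 of mouse 1 correlated at 0.46 with array 2 of mouse 4 and at 0.097 with the other array of mouse 1 in the same orientation. Mouse 3 also carried the seminal vesicle transcript Svs5 at a log2 ratio of 4.94 and mouse 4 at 1.09, against 0.21 in mouse 1 and -0.09 in mouse 2. Counts and the 3 lowest genes are given with and without each of these pairs of arrays. Such values were also read for the 45 folding genes named by the rule at the end. Where 1 of these lay beyond 0.095 from the pool, a value that moved by over 1.5 times is given. No such value is given for other genes, such as Hspa4, the markers and the genes of the non-member lists.

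The kidney itself could be checked on few markers. All 9 measured genes of the proximal tubule list and 5 of the collecting duct list gave values on the arrays, with median ratios of 0.033 and 0.11. Slc22a8, a transporter of the proximal tubule, stood at 0.48 (adjusted p = 0.0149), and Aqp2, the water channel of the collecting duct, at 0.27 (adjusted p = 0.145). These were the highest of their lists, in which 3 of 9 and 1 of 5 genes were below 0. The lowest were Kap at -0.096 and Atp6v1g3 at -0.12. Podxl of podocytes stood at -0.19, and Umod of the loop of Henle ran from -0.33 in mouse 2 to 0.27 in mouse 4 (F test adjusted p = 0.0125). Umod averaged -0.005, while Ppp1r1a, the other measured gene of its list, averaged -0.20 with all 4 mice below 0. The 5 endothelial markers lay between -0.19 and -0.058, and the 4 leukocyte markers between 0.069 and 0.15. Their part in the ratios below was not tested.

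No folding gene passed an adjusted p of 0.05 against the pool, where 13 of 6191 genes did (0.21%, of which 0.145% lower and 0.0646% higher). The smallest adjusted p was 0.0704, for Pdia6. At an unadjusted p under 0.05, 18 of the 67 folding genes were lower in knockout kidney and 0 were higher, which is 26.9% and 0.0% of them, beside 10.0% and 6.8% of all genes. Ratios were below 0 for 51 of the 67 (76.1%), beside 51.8% of all genes, and the median was -0.057, beside -0.004. All 4 mice were below 0 for 16 folding genes (23.9%), beside 14.3% of all genes. All 4 were above 0 for 3 (Fkbp4, Bag6 and Dnajb8, 4.48%), beside 11.4%. Of these, Fkbp4 and Bag6 each moved to just under 0 in at least 1 alternative setting. Dnajb8 averaged -0.053 with knockout RNA in channel 1 only and 0.12 in channel 2 only, and its probes read 0.075 and -0.013. These genes were grouped with earlier results of the same arrays known, so the counts describe them and are no test of the group.

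The count lower at unadjusted p depended on which mouse was left out, and so did that of all genes. It was 10 of 67 (14.9%, beside 6.56% of all genes) without mouse 3 and 7 (10.4%, beside 5.44%) without mouse 4. It was 16 (23.9%, beside 10.1%) without mouse 1 and 19 (28.4%, beside 11.2%) without mouse 2. Without array 3 of mouse 3 and array 1 of mouse 4 it was 14 of 65 (21.5%, beside 8.92%), and without array 2 of mice 1 and 4 it was 11 of 60 (18.3%, beside 9.63%). The count of ratios below 0 stayed between 50 and 53 of 67 with any 1 mouse left out.

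**Figure D1:**
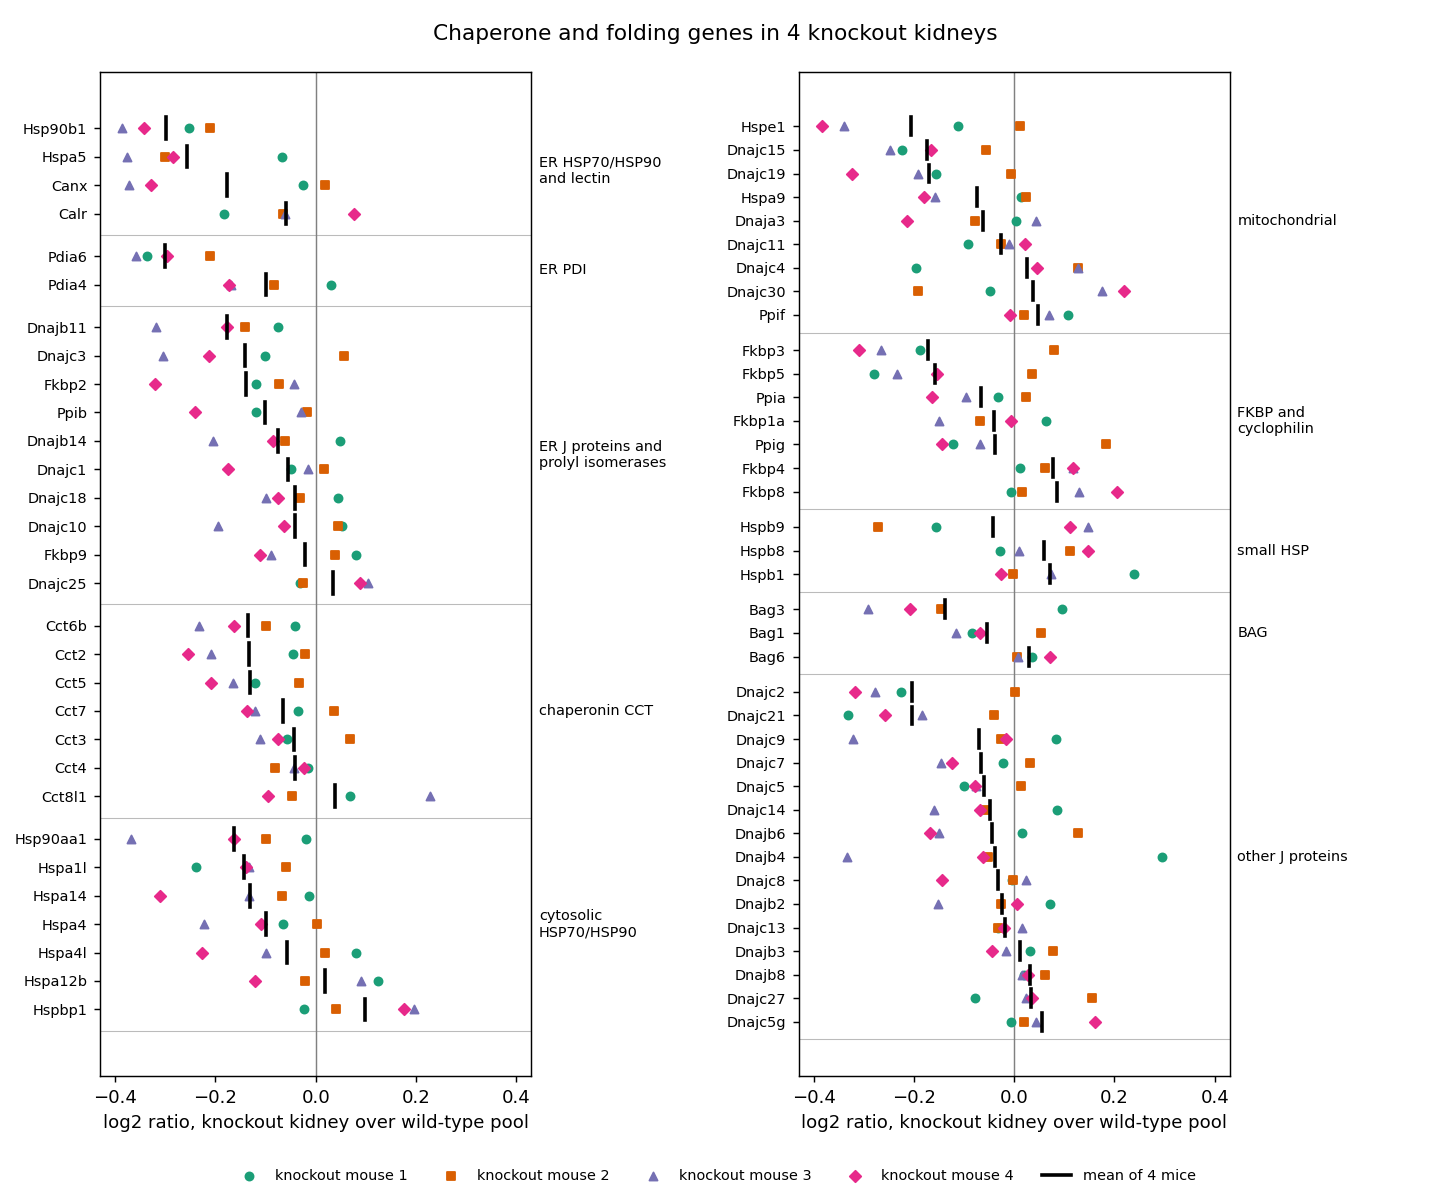
Log2 ratio of knockout kidney over the wild-type pool (horizontal axis) for the 67 folding genes (rows), grouped by role. Coloured symbols are the 4 knockout mice and the black bar is their mean. Hsp90b1, Hspa5 and Pdia6 have all 4 mice below 0, and mice 3 and 4 lie left of mice 1 and 2 for most of the genes with low means.

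The 3 lowest ratios belonged to ER genes. Of the 16 genes grouped as ER, 15 had ratios below 0 (93.8%, beside 51.8% of all genes), and the median was -0.10. In all 4 mice, 6 of them were below 0 (37.5%, beside 14.3%). Of the 51 genes grouped outside the ER, 36 were below 0 (70.6%) with a median of -0.044. The grouping may leave out ER genes, such as Dnajc14 at -0.049, which was counted outside. Pdia6, a disulfide isomerase that also binds the stress sensor IRE1, had log2 ratios of -0.34, -0.21, -0.36 and -0.30 in mice 1 to 4. All 4 mice lay below the pool, and so did all 16 arrays, from -0.60 to -0.071. The mean was -0.30 (SE 0.047, or 1.23-fold lower), and limma gave an adjusted p of 0.0704.

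Hsp90b1 encodes GRP94, the HSP90 of the ER lumen. Its ratios were -0.25, -0.21, -0.39 and -0.34 in mice 1 to 4, and again all 16 arrays lay below 0, from -0.69 to -0.18. The mean was -0.30 (SE 0.049, 1.23-fold lower, adjusted p = 0.0835). Its lowest arrays were array 1 of mouse 4 and array 3 of mouse 3, the pair that correlated most.

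Hspa5 encodes BiP, the ER HSP70 and a sensor partner of the unfolded protein response. Its mice stood at -0.068, -0.30, -0.38 and -0.28, so mouse 1 was close to the pool and the other 3 were well below it. On single arrays, 14 of 15 values were below 0, and the exception was 0.059 in mouse 1. The mean was -0.26 (SE 0.058, 1.2-fold lower, adjusted p = 0.145).

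These 3 genes kept their direction in each orientation taken alone. With knockout RNA in channel 1 only, Pdia6 averaged -0.26, Hsp90b1 -0.25 and Hspa5 -0.24. In channel 2 only they averaged -0.34, -0.34 and -0.28. Without array 2 of mice 1 and 4 the ratios were -0.29 for Pdia6, -0.28 for Hsp90b1 and -0.22 for Hspa5. Without the most correlated pair of arrays they were -0.24 for Pdia6 (adjusted p = 0.116), -0.25 for Hsp90b1 (0.097) and -0.23 for Hspa5 (0.169). Leaving out 1 mouse at a time gave -0.33 to -0.28 for Pdia6, -0.33 to -0.27 for Hsp90b1 and -0.32 to -0.22 for Hspa5. When the test was restricted to probes with a value on all 16 arrays (2681 genes, 40 called), Pdia6 and Hsp90b1 passed, at adjusted p-values of 0.0301 and 0.0327.

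The lectin chaperones, which hold glycoproteins in the ER until they are folded, differed from these. Canx (calnexin) stood at -0.026, 0.018, -0.37 and -0.33 in mice 1 to 4, so mice 1 and 2 were close to the pool and mice 3 and 4 were low. Its mean was -0.18 (SE 0.074, adjusted p = 0.275) and its 2 probes read -0.12 and -0.24. It stood at -0.11 without mouse 3 and at -0.28 without array 2 of mice 1 and 4. Calr (calreticulin) stood at -0.18, -0.066, -0.060 and 0.077, a mean of -0.058 (SE 0.053, adjusted p = 0.579), and its lowest mouse was mouse 1. Its ratio was 0.036 with knockout RNA in channel 1 only, so its sign depends on the orientation. Over the 4 genes of this class (Hspa5, Hsp90b1, Canx and Calr) the mouse medians were -0.13, -0.14, -0.37 and -0.31.

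**Figure D2:**
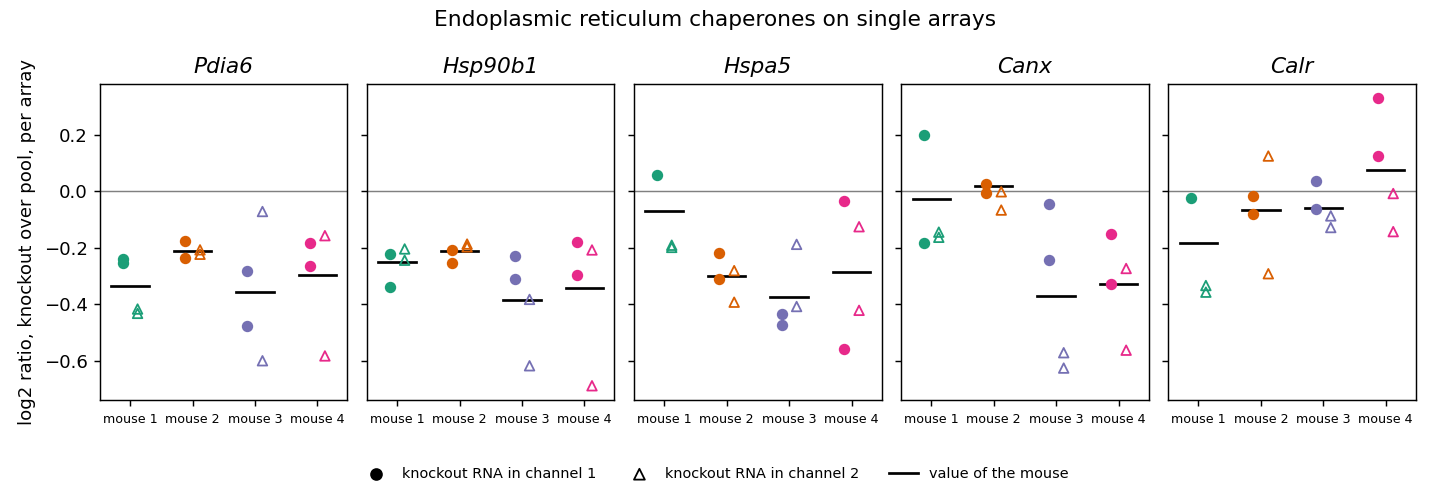
Log2 ratio of knockout kidney over the pool (vertical axis) on each array for 5 ER chaperones, by mouse. Filled circles have knockout RNA in channel 1, open triangles in channel 2, and the black line is the value of the mouse. Pdia6 and Hsp90b1 are below 0 on all 16 arrays, while Calr spreads from -0.36 to 0.33.

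The promoters of these genes carry a sequence known as a target of the unfolded protein response, and they are printed because the 3 genes with the lowest ratios share it. The ER stress element was searched as CCAAT and CCACG exactly 9 bases apart, on both strands, in RefSeq windows of GRCm38.p6 that run from 250 bases before to 50 after each annotated start. It is known from studies of BiP, GRP94 and calreticulin promoters, so its presence there is background and not a result. The stretches below are the 250 bases before the start, 5′ to 3′ on the strand of the gene, with the element in capitals; Hsp90b1 has a second copy on the opposite strand.

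Pdia6, chr12:17266339-17266588, plus strand: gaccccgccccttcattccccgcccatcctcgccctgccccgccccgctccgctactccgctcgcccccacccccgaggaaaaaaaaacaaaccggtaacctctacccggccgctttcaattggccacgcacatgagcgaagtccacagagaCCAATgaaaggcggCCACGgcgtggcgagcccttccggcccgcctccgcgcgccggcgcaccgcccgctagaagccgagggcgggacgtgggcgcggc

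Hsp90b1, chr10:86705445-86705694, minus strand: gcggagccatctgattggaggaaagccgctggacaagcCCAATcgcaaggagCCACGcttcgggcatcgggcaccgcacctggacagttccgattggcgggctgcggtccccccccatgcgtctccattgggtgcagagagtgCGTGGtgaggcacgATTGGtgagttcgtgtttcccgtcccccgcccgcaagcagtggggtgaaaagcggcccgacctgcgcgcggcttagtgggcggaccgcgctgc

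Hspa5, chr2:34771840-34772089, plus strand: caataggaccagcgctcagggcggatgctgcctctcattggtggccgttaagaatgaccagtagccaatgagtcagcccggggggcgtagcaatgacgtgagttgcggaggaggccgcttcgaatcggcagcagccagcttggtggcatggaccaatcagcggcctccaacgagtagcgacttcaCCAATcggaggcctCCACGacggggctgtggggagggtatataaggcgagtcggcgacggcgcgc

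Of the 67 folding genes, 59 matched the promoter table by symbol, and 6 of them held the element (10.2%), beside 37 of 27025 genes (0.137%). All 6 were ER genes, out of 15 ER genes matched. Set under each other in the order of their ratios, the elements differ in the spacer and share its flanks by definition. Each is written from CCAAT to CCACG. The second copy of Hsp90b1 and the element of Calr lie on the strand opposite to the gene.

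Pdia6: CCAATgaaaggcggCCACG
Hsp90b1, first copy: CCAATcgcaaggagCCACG
Hsp90b1, second copy: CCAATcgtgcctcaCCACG
Hspa5: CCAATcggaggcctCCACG
Canx: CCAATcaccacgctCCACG
Dnajc3: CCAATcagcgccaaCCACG
Calr: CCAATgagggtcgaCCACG

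The ratios of these 6 genes were all below 0, with a median of -0.22 and a range of -0.30 to -0.058. Their 3 lowest members were the reason for printing the element, so these values are no test of it. The 53 matched folding genes without the element, most of them outside the ER, had a median of -0.049, with 38 below 0. The matched ER genes among them ran from -0.18 (Dnajb11) to 0.034 (Dnajc25), the only one above 0. Holding the element and being an ER gene were not told apart. Only 3 other tested genes held the element, and they did not lie on one side: Creld2, an ER stress-responsive gene, stood at -0.28, Acacb, an acetyl-CoA carboxylase, at 0.017, and Derl3, a factor of ER-associated degradation, at 0.068. A match is a description of letters and shows no binding. The shorter ER stress element II (ATTGGcCCACG, with both of its parts in capitals) was found in 1 folding gene, Dnajb11, beside 12 of 27025 genes (0.0444%). A CCAAT box alone was in 44.1% of the folding genes and 41.1% of all genes.

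The J proteins and prolyl isomerases of the ER were closer to the pool, with 9 of 10 ratios below 0 and a median of -0.066. Dnajb11, a luminal J protein that hands unfolded proteins to BiP, was lowest. It stood at -0.076, -0.14, -0.32 and -0.18 in mice 1 to 4, all 4 below 0, with a mean of -0.18 (SE 0.052, adjusted p = 0.178). Dnajb11 lies on chromosome 16, as Slc15a2 does, and a strain difference linked to the deletion was not tested. Dnajc3, the ER J protein known as P58IPK, stood at -0.10, 0.056, -0.31 and -0.21, and mouse 2 alone was above the pool. The mean of Dnajc3 was -0.14, and -0.086 without mouse 3. Fkbp2, an ER prolyl isomerase, averaged -0.14 with its lowest value, -0.32, in mouse 4, and -0.079 without that mouse. Ppib (cyclophilin B) averaged -0.10, again lowest in mouse 4, at -0.24, and -0.055 without it.

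The other ER J proteins and prolyl isomerases (Dnajb14, Dnajc1, Dnajc10, Dnajc18, Dnajc25 and Fkbp9) lay between -0.075 and 0.034. The second Pdia gene tested, Pdia4, averaged -0.098 over 2 probes (SE 0.051, adjusted p = 0.358), with mouse 1 at 0.031 and the other 3 between -0.17 and -0.082. Its ratio was 0.008 with knockout RNA in channel 1 only, so the 2 orientations did not share a sign. P4hb, a disulfide isomerase outside the naming rule, was closer to the pool. It averaged -0.042 (limma adjusted p = 0.641), with mouse values from -0.082 to 0.007.

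Genes of the ER outside the naming rule were read from a list of stress, folding, translocation, glycosylation and degradation genes, chosen by function. Of 45 measured, 29 were below 0 with a median of -0.057, and 0 passed the adjusted threshold. At unadjusted p under 0.05, 11 were lower and 1 was higher (Wfs1, at 0.14), beside the 10.0% and 6.8% of all genes given above. The 4 genes named next had the smallest unadjusted p of the list in limma and are not typical of it. Creld2 had mouse values of -0.032, -0.17, -0.54 and -0.37 (adjusted p = 0.174), so mice 3 and 4 were lowest. Manf, a secreted ER stress protein, averaged -0.21 (adjusted p = 0.145) with all 4 mice between -0.30 and -0.12. Sec61g and Sec61b, small subunits of the translocation channel, averaged -0.24 and -0.19. Among the folding factors of the list, Tmx1 averaged -0.25, Ero1a -0.11, Txndc12 -0.057 and P4hb -0.042. Erp29, Txndc11 and Sil1 averaged -0.032, -0.023 and 0.003.

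The 3 regulators named here, Xbp1, Atf4 and Ddit3, lay on both sides of the pool. Xbp1, its spliced transcription factor, averaged 0.065 and ran from -0.20 in mouse 1 to 0.41 in mouse 3. Atf4 averaged -0.051 and Ddit3 (CHOP) 0.060, with the mice of Ddit3 between -0.040 and 0.18. None of the 3 passed a test.

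**Figure D3:**
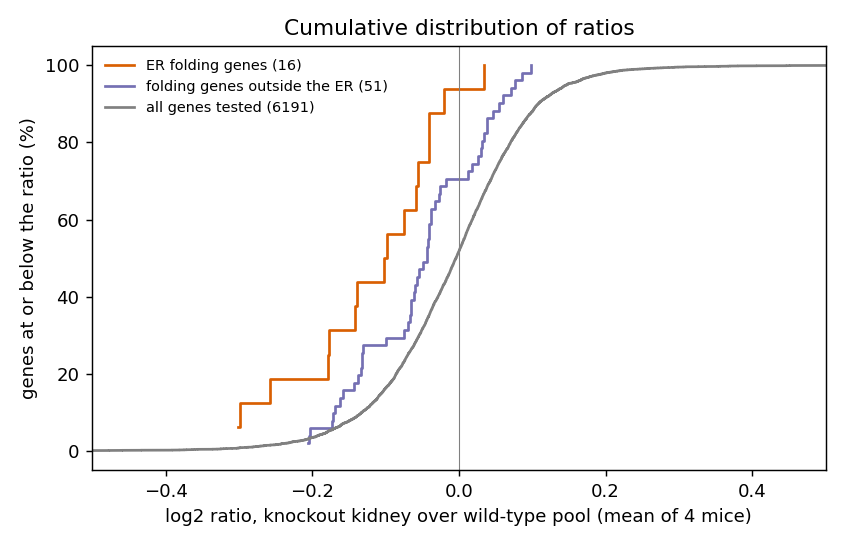
Cumulative share of genes (vertical axis, %) at or below each log2 ratio of knockout kidney over the pool (horizontal axis, mean of 4 mice). The curves are the 16 ER folding genes, the 51 folding genes outside the ER and all 6191 genes tested, whose medians are -0.10, -0.044 and -0.004.

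Outside the ER, 6 of 7 ratios of the Cct genes of the cytosolic chaperonin were below 0. CCT is a double ring of related subunits. Under the naming rule Cct2, Cct3, Cct4, Cct5 and Cct7 were measured, together with the testis-type subunit Cct6b and Cct8l1. Tcp1, a further subunit of the ring, lies outside the rule and is counted below among the partners. It averaged -0.082 (limma adjusted p = 0.374), and all 4 mice were below 0. Cct6b, Cct2 and Cct5 each averaged -0.13 (adjusted p from 0.231 to 0.275) and were below 0 in all 4 mice. Cct2 stood at -0.046, -0.022, -0.21 and -0.25 in mice 1 to 4, and Cct5 at -0.12, -0.033, -0.16 and -0.21, so in both the lowest mice were 3 and 4. Without array 3 of mouse 3 and array 1 of mouse 4, Cct5 stood at -0.085. Without those arrays Cct7, at -0.065 in all, stood at -0.021. Cct3 averaged -0.044 (0.006 with arrays 3 and 4 only) and Cct4 -0.040 with the smallest spread of the class (SD 0.030 between mice). Cct8l1 averaged 0.039 and was -0.18 with knockout RNA in channel 1 only. Cct8 had values on 10 arrays and did not pass the filter, and no single-gene probe was used for Cct6a.

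Among cytosolic HSP70 and HSP90 genes, 5 of 7 ratios were below 0. Hsp90aa1, the stress-inducible HSP90, stood at -0.020, -0.098, -0.37 and -0.16 in mice 1 to 4, with a mean of -0.16 (SE 0.062, adjusted p = 0.249). Mouse 3 was lowest, and without it the mean was -0.093. Hspa1l, an HSP70 close in sequence to the left-out Hspa1a, stood at -0.24, -0.058, -0.13 and -0.14, with mouse 1 lowest. The value of mouse 1 came mostly from array 2 (-0.75, against -0.24, -0.072 and 0.12 on its other arrays). Hspa1l averaged -0.23 with arrays 1 and 2 only, -0.058 with arrays 3 and 4 only, and -0.066 without array 2 of mice 1 and 4. Closely related HSP70 transcripts may share signal on a cDNA probe, and how far they did was not tested.

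Hspa14, an HSP70 of the ribosome, averaged -0.13 and was lowest in mouse 4, at -0.31, and its mean was -0.071 without that mouse. The HSP110-type exchange factors Hspa4 and Hspa4l averaged -0.099 and -0.057, and Hspa4 was lowest in mouse 3, at -0.22. Hspbp1, which releases nucleotide from HSP70, had the highest ratio of all 67 genes, at 0.098 (SE 0.053, adjusted p = 0.370), with mice 3 and 4 at 0.20 and 0.18. It was 0.065 without mouse 3 and -0.001 with knockout RNA in channel 2 only.

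In mitochondria, Hspe1, the small lid of the HSP60 chamber, was lowest. Its mice stood at -0.11, 0.011, -0.34 and -0.38 (mean -0.21, SE 0.070, adjusted p = 0.207), and mice 3 and 4 lay apart from mice 1 and 2. Dnajc15 and Dnajc19, J proteins of the import motor, averaged -0.17 each (adjusted p = 0.174 and 0.207) and were below 0 in all 4 mice. Dnajc15 was -0.94 on array 2 of mouse 1, against -0.12 to 0.23 on the other arrays of that mouse. It averaged -0.30 with arrays 1 and 2 only, -0.045 with arrays 3 and 4 only, and -0.081 without array 2 of mice 1 and 4, where Dnajc19 was -0.10. Hspa9, mortalin, read by 3 probes, averaged -0.075, and its probes gave -0.11, -0.092 and -0.024. Dnaja3 and Dnajc11 averaged -0.061 and -0.027, and Dnajc4, Dnajc30 and Ppif between 0.026 and 0.047. The partner of Hspe1, Hspd1, was not analysed here.

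The prolyl isomerases grouped as cytosolic and nuclear did not share 1 direction. Fkbp3 and Fkbp5 averaged -0.17 and -0.16 (adjusted p = 0.261 and 0.246), and in both mouse 2 was above the pool while the other 3 were below it. Fkbp5, a glucocorticoid-responsive cochaperone of HSP90, was lowest in mouse 1, at -0.28. Fkbp4, the counterpart of Fkbp5 on the same HSP90 complexes, averaged 0.077 (SE 0.045, adjusted p = 0.402) with all 4 mice between 0.013 and 0.12. Fkbp8, counted in this group although its protein is anchored in the mitochondrial membrane, averaged 0.086, and Ppia (cyclophilin A) -0.067.

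Small heat shock proteins and BAG cochaperones were few. Hspb1 and Hspb8 averaged 0.071 and 0.060, Hspb9 -0.042, and their mice lay on both sides of the pool in each case. Bag3, an HSP70 exchange factor induced by stress, stood at 0.096, -0.15, -0.29 and -0.21 in mice 1 to 4, with a mean of -0.14 (adjusted p = 0.327), which was -0.21 without mouse 1 and -0.086 without mouse 3. Bag1 averaged -0.054 and Bag6 0.030.

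Among the remaining 15 J proteins, Dnajc2 and Dnajc21 were lowest. Dnajc2, a J protein at the ribosome, stood at -0.23, 0.002, -0.28 and -0.32 (mean -0.20, SE 0.060, adjusted p = 0.177), and mouse 2 alone was at the level of the pool. Dnajc21, needed for ribosome maturation, stood at -0.33, -0.040, -0.18 and -0.26 (mean -0.20, SE 0.056, adjusted p = 0.172). Single arrays carried much of that value: Dnajc21 was -1.12 on array 2 of mouse 1 and -0.86 on array 2 of mouse 4, and averaged -0.064 without both and -0.067 with arrays 3 and 4 only. The median of the 15 was -0.038, with 11 below 0.

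Partners of these chaperones that lie outside the naming rule were nearer to the pool, as far as they were measured. Of 32 cytosolic and mitochondrial partners, with the CCT subunit Tcp1 counted among them, 18 were below 0 (56.2%, beside 51.8% of all genes). Their median was -0.016. At unadjusted p under 0.05, 3 were lower and 0 higher, beside 10.0% and 6.8% of all genes, so the list as a whole was near the background. The genes named next had the smallest unadjusted p of the list. Pfdn1, a subunit of prefoldin that passes actin and tubulin to CCT, averaged -0.23 (adjusted p = 0.145). Cdc37l1, an HSP90 cochaperone, averaged -0.27, with -0.60 in mouse 3 and 0.015 in mouse 1. Tbce, a tubulin-folding cofactor, averaged -0.14, and Ppil3, a cyclophilin, -0.098.

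The second comparison asked whether the 4 knockout mice differed among themselves, a contrast in which the shared pool cancels. Mouse medians over the 67 genes were -0.031, -0.006, -0.12 and -0.12, while those of all genes lay between -0.006 and 0.000. The lowest of the 4 values was in mouse 3 for 23 genes and in mouse 4 for 25, in mouse 1 for 15 and in mouse 2 for 4. The highest was in mouse 2 for 30 genes (44.8%, beside 28.1% of all genes) and in mouse 1 for 21 (31.3%, beside 23.3%). Over all genes tested, the share lowest in mouse 3 was 27.7% and in mouse 4 23.1%, beside 34.3% and 37.3% of the folding genes, and in mouse 2 it was 23.0%, beside 5.97%.

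By the moderated F test over arrays, 1 of 67 folding genes (1.49%) differed between mice at an adjusted p under 0.05, beside 2.54% of all genes. At unadjusted p under 0.05, 12 did (17.9%), beside 13.6%. Neither share stands far from that of all genes. Arrays of a mouse measure technical spread, so this test compares these 4 animals and no genotypes.

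The gene that passed was Dnajb4, a cytosolic J protein related to the left-out Dnajb1. Its mice stood at 0.29, -0.051, -0.33 and -0.062, so mouse 1 was above the pool and mouse 3 below it (F test adjusted p = 0.00933 in limma). Its 2 probes did not share this. One stood at 0.44, -0.066, -0.68 and -0.21 (adjusted p = 0.000644 at probe level), and the other at 0.15, -0.037, 0.012 and 0.083 (0.760). The call was lost without mouse 1 (adjusted p = 0.336), without mouse 3 (0.210), and with arrays 1 and 2 only (0.335) or arrays 3 and 4 only (0.0859), and was kept without array 3 of mouse 3 and array 1 of mouse 4 (0.0149) and without array 2 of mice 1 and 4 (0.00965).

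At probe level a second J protein appeared. One of 3 probes of Dnajb6 stood at 0.001, -0.005, -0.36 and -0.43 (adjusted p = 0.0144), so mice 3 and 4 were low and mice 1 and 2 at the pool. The other 2 probes averaged -0.028 and 0.094 and did not pass. Which transcripts the probes of Dnajb4 and Dnajb6 detect was not tested.

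The 4 heat-inducible genes left out by the rule varied more. Hspa1a stood at 0.34, -0.51, -0.89 and -0.38 in mice 1 to 4, and Dnajb1 at 0.38, -0.23, -0.74 and -0.32, so both were above the pool in mouse 1 and lowest in mouse 3, like the Dnajb4 probe that passed. Hsph1 stood at 0.11, -0.17, -0.54 and -0.50, and Hspa8 at 0.016, -0.14, -0.53 and -0.79. All 4 passed the F test, with adjusted p-values between 0.000605 and 0.00546. In the folding genes tested here, the spread was smaller, with a median SD between mice of 0.10, close to that over all genes (0.099).

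A heat shock element (3 alternating GAA and TTC units, 2 bases apart) was in the windows of Dnajb6 and Hspe1 among 59 matched folding genes, beside 0.662% of all genes. No such match was in the Dnajb4 windows.

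**Figure D4:**
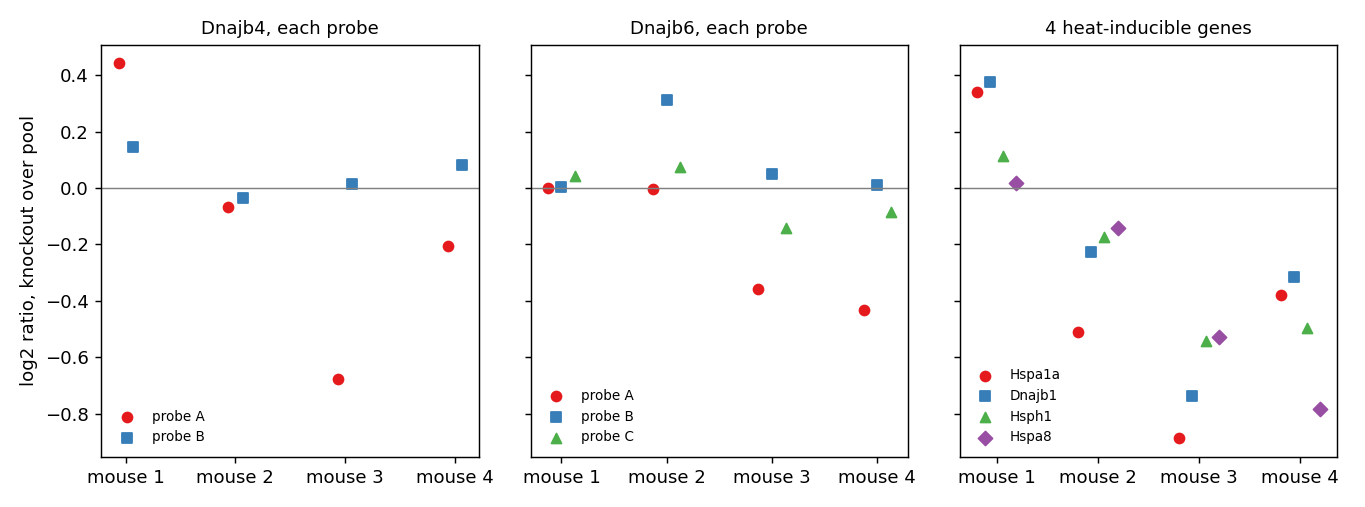
Log2 ratio of knockout kidney over the pool (vertical axis) in mice 1 to 4 for each probe of Dnajb4 and Dnajb6 and for the 4 heat-inducible genes left out by the rule. One Dnajb4 probe runs from 0.44 in mouse 1 to -0.68 in mouse 3 while the other stays between -0.037 and 0.15.

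The dye orientation was compared last, as a check of the probes. No folding gene passed an adjusted p of 0.05 for a difference between orientations, where 0.0% of all genes did. At unadjusted p under 0.05, 14 of 67 did (20.9%), beside 19.5% of all genes. The largest orientation differences (channel 1 minus channel 2, divided by 2) among them were below 0. They were -0.22 for Cct8l1, -0.21 for Dnajc5g, -0.18 for Ppig and -0.16 for Dnajc27. Canx, Pdia4 and Fkbp1a were also among them and went the other way, at 0.11, 0.11 and 0.12. Fkbp1a and Pdia4 were above 0 in channel 1 and below it in channel 2, while Canx was below 0 in both.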

How the data were processed

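Per the labels, RNA was labelled indirectly with Cy3 or Cy5, a GenePix 4000A scanner was used, and the authors scaled background-subtracted mean intensities to a median ratio of 1 on each array. The deposited values are log2 ratios, 1 per probe and array. The numerator channel and the base are not stated. Of 720 distances between repeated values, 322 equalled log2 of a quotient of integers no larger than 20 (44.7%, tolerance 2e-06), 1 matched natural and 0 decimal logarithms.

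Signs were turned by the channel of the knockout RNA and each array was centred on its median. Probes with a value in both orientations of every mouse were kept (10804, of which 7121 name 1 gene), and a gene is the mean of its probes. Of 20205 probes, 11723 had 1 symbol, 806 several and 7676 none; 11590 matched the current gene table. The 21 folding genes not tested had values on 1 to 14 arrays.

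Ratios per mouse were tested against 0 with limma 3.58.1 in R 4.3.3, two-sided, with Benjamini-Hochberg adjustment over 6191 genes. Mice were compared by moderated F test on arrays, with dye as a term, and orientations by their difference in each mouse. Genes are named if they passed a test, were among the 3 smallest p-values of a role group, the 8 highest or 8 lowest ratios or the 10 widest spreads, or are core chaperones listed by name. From each list of non-members, the 4 genes with the smallest unadjusted p against the pool are named. Other genes (Acacb, Derl3, Wfs1, Tcp1, the ER folding factors outside the naming rule, single markers, and members given in ranges or for completeness) were chosen after seeing values. The genes, lists and roles were chosen with earlier results of these data known. Alternatives included no centring, scaling, probe medians, other probe filters, arrays 1 and 2 or 3 and 4 alone, each mouse left out, and 1 orientation.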

Additional observations from a re-analysis of the deposited data

Results flagged for a closer look

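In Dnajc8, a J protein linked to splicing, mouse 4 stood apart from the other knockout mice. Its log2 ratio over the wild-type pool was -0.145 in mouse 4, against -0.005, -0.002 and 0.023 in mice 1 to 3. Its 2 probes were averaged, and the gap was larger than Dixon's test allows for 4 samples. Chance flags about 1 in 20 groups, and this was 1 of 67 genes examined. On single arrays, mouse 4 stood at -0.33 and -0.22 with knockout RNA in channel 2, and at -0.053 and 0.021 in channel 1. The lowest of these was array 1 of mouse 4, which belongs to the most correlated pair of arrays.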

How the results depend on the processing

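The count of folding genes past the adjusted threshold against the pool was 0 in every alternative run except probes with a value on all 16 arrays, which gave 2 of 43 in a table of 2681 genes (4.65%, beside 1.49%). The count that differed between mice was 0 with arrays 1 and 2 only and with arrays 3 and 4 only (beside 0.72% and 0.615% of all genes), 0 to 1 with 1 mouse left out (beside 0.727% to 2.18%), and 2 probes at probe level (2.35%, beside 2.44%). The count lower at unadjusted p was 10 with arrays 1 and 2 (19.2%, beside 8.97% of all genes), 10 with arrays 3 and 4 (19.6%, beside 9.82%), 7 to 19 with 1 mouse left out, 11 without array 2 of mice 1 and 4, and 0 under the opposite reading (beside 6.8%). Ratios below 0 numbered 33 of 43 with complete probes (76.7%, beside 56.9%) and 16 under the opposite reading, which exchanges every sign. These array subsets also leave fewer genes (52 and 51). Of the medians, CCT moved to -0.13 with complete probes and -0.15 with arrays 1 and 2, cytosolic HSP70 and HSP90 to -0.025 and small heat shock proteins to -0.018 with arrays 3 and 4, and disulfide isomerases to -0.30 (complete probes), -0.29 (arrays 1 and 2), -0.13 (channel 1) and -0.27 (channel 2). The other 158 median values stayed within the spread between mice.

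Of 582 ratios of 45 named genes under the alternatives, 25 changed sign, in 15 genes. With knockout RNA in channel 1 only, Calr stood at 0.036, Cct8l1 at -0.18, Dnajc5g at -0.16, Hspb9 at 0.0021, Pdia4 at 0.0078 and Ppia at 0.0069. In channel 2 only, Bag6 stood at -0.0090, Dnajc30 at -0.076, Dnajc4 at -0.093, Hspbp1 at -0.0010 and Ppif at -0.0076. With arrays 3 and 4, Cct3 stood at 0.0060, Dnajc30 at -0.050 and Fkbp4 at -0.0023. Without array 3 of mouse 3 and array 1 of mouse 4, Bag6 stood at -0.017 and Cct3 at 0.0067, and without array 2 of mice 1 and 4, Dnajc30 stood at -0.0028. Both of these settings and the probe level were chosen after seeing the data. With 1 mouse left out, Cct8l1 ranged from -0.025 to 0.083, Dnajb4 from -0.15 to 0.060, Dnajc30 from -0.022 to 0.12, Dnajc4 from -0.0082 to 0.10, Dnajc9 from -0.12 to 0.014 and Hspb9 from -0.11 to 0.034. The cause was not tested. No paired analysis was possible because the pool is the only wild-type sample.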
